A study of Mus musculus with 2 samples.

Results

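The cells described here were tumor cells caught in G1/S and S phase, the part of the cell cycle in which the genome is copied. They were picked out of single-cell RNA sequencing data from orthotopic mouse glioblastoma. A barcode was taken as tumor when it held at least 3 unique molecular identifiers (UMIs, each counting 1 captured probe product) of Olig1 and Olig2 together and at most 3 of C1qa, C1qb and C1qc. Such a cell was counted as S-phase when at least 4 of the 6 genes Cdc6, Ccne2, E2f1, Mcm5, Uhrf1 and Hist1h1b had 2 or more UMIs. At most 1 of the 5 G2 and mitosis genes Hmmr, Aspm, Cenpf, Ube2c and Kifc1 was allowed to have 3 or more UMIs. In all, 3015 S-phase cells were found among 31867 tumor cells and 56943 barcodes.

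The tumors grew in the brains of C57BL/6J mice from mGSC, a mouse glioblastoma stem cell line that was heterozygous for Trp53 and Nf1 (Trp53+/- and Nf1+/-) in both groups. Mice were given vehicle or Xevinapant, an oral SMAC mimetic that binds the inhibitor of apoptosis proteins (IAPs) encoded by Birc2, Birc3 and Xiap. Cells were taken right after a week of daily dosing, so the data show a single time and a single cell line. The comparison asks how the tumor and its surroundings change under the drug. Each group had 4 count matrices. Matrices 1 and 3 of the vehicle group, and matrices 1 and 2 and matrices 3 and 4 of the Xevinapant group, were so alike that each pair was counted as 1 sample. This gave 3 vehicle samples (1+3, 2 and 4) and 2 Xevinapant samples (1+2 and 3+4). The treatments were run as separate pools on separate batch dates, and one group is labelled total RNA and the other polyA RNA, so treatment, pool and date cannot be told apart. The study describes as many mice as matrices in each group, but no source used here ties a matrix to a mouse, so the joined pairs may be separate mice. P-values measure only the spread between these samples, which may be technical.

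Entry into S phase is driven by E2F transcription factors. Cyclin D and cyclin E kinases release E2F from the retinoblastoma protein, and E2F then turns on the genes for origin licensing, the replication fork and nucleotide supply. Replication-dependent histone genes are transcribed while DNA is being copied, because new chromatin needs new histones. Genes of G2 and mitosis follow later under the DREAM and B-MYB-FOXM1 complexes, which act through CHR elements. The promoters of such genes often hold CCAAT boxes as well. In glioma, cycling cells are found mostly among progenitor-like cells.

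The promoters of the genes behind the rule are shown for 4 genes, to show which letters of the known E2F, CCAAT and CHR elements they hold. Each window runs from 250 bases before to 50 after the transcription start in RefSeq (GRCm38.p6), written 5′ to 3′ on the gene's strand. Capitals mark the 8-letter E2F consensus (TTTCCCGC, TTTGGCGC, TTTCGCGC or TTTGCCGC), the CCAAT box (CCAAT) and the CHR element (TTTGAA), each searched on both strands. Cdc6 (chr11:98907901-98908200, plus strand), which loads the replicative helicase, had a single E2F match 138 bases before the start. Mcm5 (chr8:75109259-75109558, plus strand), a subunit of that helicase, had 2 overlapping E2F matches and 3 CCAAT boxes. Hist1h1b (chr13:21780576-21780875, minus strand), a linker histone, had 3 CCAAT boxes and 1 CHR match but no E2F match, although it is one of the S-phase markers. Hmmr (chr11:40733388-40733687, minus strand), a spindle protein, had the same kinds of element, with 5 CCAAT boxes, 1 CHR match and no E2F match.
Cdc6: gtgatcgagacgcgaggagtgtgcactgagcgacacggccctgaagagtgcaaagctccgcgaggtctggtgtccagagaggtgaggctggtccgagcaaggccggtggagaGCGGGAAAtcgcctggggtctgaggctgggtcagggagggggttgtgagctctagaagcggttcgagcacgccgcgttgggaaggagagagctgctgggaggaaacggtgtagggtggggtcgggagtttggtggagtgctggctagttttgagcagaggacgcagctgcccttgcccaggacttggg
Mcm5: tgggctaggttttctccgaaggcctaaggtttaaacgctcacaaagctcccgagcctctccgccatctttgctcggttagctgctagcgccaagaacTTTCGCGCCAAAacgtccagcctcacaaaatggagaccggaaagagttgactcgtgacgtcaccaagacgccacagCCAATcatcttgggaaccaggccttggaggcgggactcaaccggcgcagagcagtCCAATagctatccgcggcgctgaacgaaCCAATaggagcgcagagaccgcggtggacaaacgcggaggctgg
Hist1h1b: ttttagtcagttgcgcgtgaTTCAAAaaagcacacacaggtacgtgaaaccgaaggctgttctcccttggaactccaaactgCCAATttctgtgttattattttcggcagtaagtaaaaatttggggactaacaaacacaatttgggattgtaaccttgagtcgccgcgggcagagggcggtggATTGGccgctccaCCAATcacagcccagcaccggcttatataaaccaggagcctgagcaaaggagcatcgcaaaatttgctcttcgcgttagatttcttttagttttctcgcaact
Hmmr: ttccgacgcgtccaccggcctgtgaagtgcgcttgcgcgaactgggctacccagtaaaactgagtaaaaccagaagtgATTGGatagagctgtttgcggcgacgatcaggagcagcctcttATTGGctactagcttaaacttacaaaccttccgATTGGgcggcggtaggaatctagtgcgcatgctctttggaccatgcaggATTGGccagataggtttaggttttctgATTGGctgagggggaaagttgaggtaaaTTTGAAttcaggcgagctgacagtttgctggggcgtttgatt

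Across the gene lists the same letters were unevenly spread. An E2F match was present in 704 of the 27025 genes with a window (2.6%). It was present in 8 of 15 genes for origin licensing and firing (53.3%), in 9 of 25 G1/S regulators (36.0%) and in 7 of 24 replication fork genes (29.2%). None of the 14 nucleotide synthesis genes with a window held these letters. A CCAAT box stood in 26 of 29 replication histone windows (89.7%) and in 21 of 25 windows of G2 and mitosis genes (84.0%), against 41.1% of all genes. The CHR letters stood in 18 of those 25 G2 and mitosis windows (72.0%), against 20.2% of all genes, and in each of the 5 excluding genes. Windows were found for 5 of the 6 marker genes. Among these, Cdc6, Mcm5 and Uhrf1 held an E2F match. The E2f1 window held none of the 3 elements, but it covers only 1 annotated start. It therefore does not show that the main E2f1 promoter lacks them. A match is a description of letters and not of a bound site.

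The S-phase cells were deeply read, with a median of 20640 UMIs and 6382 genes per cell, against 17913 UMIs in the other tumor cells. By sample the median was 19371, 19351 and 19353 UMIs in vehicle 1+3, 2 and 4, and 21392 and 24420 in Xevinapant 1+2 and 3+4. Both Xevinapant samples were thus deeper than every vehicle sample. Because the rule counts UMIs, higher depth takes more cells past the marker minimum and also more cells past the limit on the excluding genes. Among the S-phase cells, 164 (5.44%) had Scrublet doublet scores among the highest of their matrix, up to the number of doublets expected for its size, against 6.60% of all tumor cells. The droplet part of the barcode was shared 8787 times between matrices of a group, 28 of them among S-phase cells, and 1 time among S-phase cells of different groups.

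The 6 genes that chose the cells were not used evenly. Mcm5 passed 2 UMIs in 99.0% of the cells and Uhrf1, which carries DNA methylation marks over to new DNA, in 98.4%. Hist1h1b passed in 90.9%, E2f1 in 70.5%, Cdc6 in 67.3% and Ccne2, the cyclin E2 of the G1/S transition, in 35.8%. Exactly 4 genes passed in 1569 cells, 5 in 1023 and all 6 in 423. The level of Mcm5 in CPM, the UMIs of a gene scaled to an equal total in every summed sample, was 590.0, 446 and 427 in the vehicle samples and 499.7 and 505 in the Xevinapant samples. Resting tumor cells, defined as those with none of the 6 genes at 2 UMIs and none of the 5 excluding genes at 3 UMIs, held a mean of 23.0. Resting cells were also shallower, with a median of 10503 UMIs and 4498 genes. The S-phase cells lay a median of 26.5 times above the resting cells for Mcm5 (range over the 5 samples 13.7 to 33.0) and 32.4 times for Cdc6 (26.9 to 62.7). These ratios were fixed by the choice and are given without a test.

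**Figure D1:**
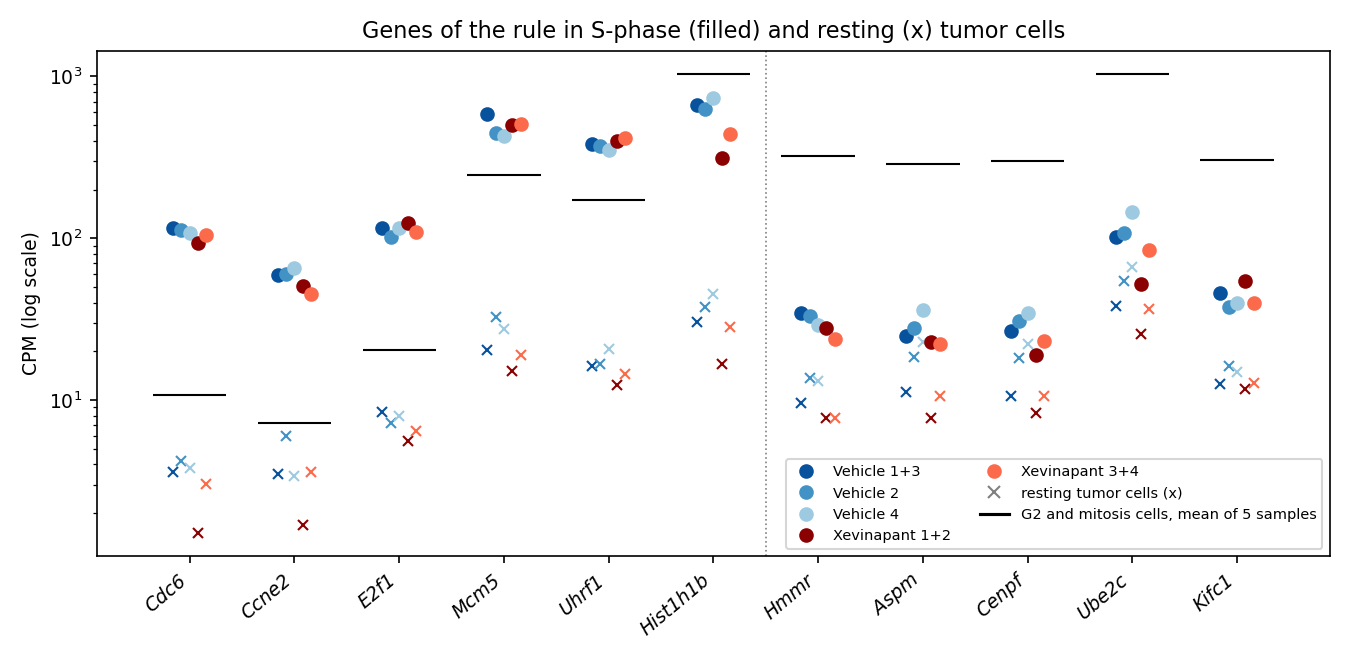
Levels, in CPM on a log scale, of the 6 marker genes and the 5 excluding genes in S-phase cells (filled points, 1 per sample), resting tumor cells (x) and tumor cells with G2 and mitosis genes (black lines, mean of 5 samples). Cdc6, Ccne2, E2f1, Mcm5 and Uhrf1 were highest in the S-phase cells, whereas Hist1h1b, at a mean of 1040 in the G2 and mitosis cells, was not.

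The excluding genes stood low but not at 0. Ube2c, which tags mitotic proteins for destruction, had 3 or more UMIs in 31.2% of the S-phase cells, since 1 such gene was allowed. Its level in CPM was 102, 108 and 146 in vehicle and 52.4 and 84.0 in Xevinapant, against a mean of 1030 in the 7671 tumor cells called G2 and mitosis. The 2599 tumor cells with 3 markers, just outside the rule, had 5.84 Mcm5 UMIs per cell, and the 1569 with 4, just inside, had 8.86. Cells with 1 excluding gene numbered 1419 and had 17.6 Hist1h1b UMIs per cell, whereas the 1096 just outside, with 4 or more markers and 2 excluding genes, had 30.9. A further 5879 tumor cells passed the marker limit but held 2 or more excluding genes, with a median of 38147 UMIs, and are called late cells here.

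Genes for DNA replication were higher in the S-phase cells than in the resting cells. All 21 measured genes of origin licensing and firing were above the resting cells in every one of the 5 samples, as were all 28 replication fork genes and all 15 nucleotide synthesis genes. Over all 12451 genes tested, 28.4% were above and 37.9% below in all 5 samples. Since the rule selected on E2F-driven genes, these counts describe the cells and read nothing further. The median gene of the origin list stood 9.51 times above the resting cells, that of the fork list 5.60 times and that of the nucleotide list 3.62 times. After both sets were chosen again at an equal depth of 10000 UMIs per cell, without the shallower cells, the medians were 9.51, 6.49 and 3.67. Set against the late cells, the 3 list medians were only 1.24, 1.21 and 1.11, beside 1.03 over all genes. The checkpoint and repair list had 1.10, and the replication histones stood lower than in late cells, at 0.52.

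Mcm2 and Mcm3, like Mcm5, encode subunits of the replicative helicase. Mcm2 was at 689.6, 716 and 614 CPM in vehicle and 669.8 and 627 in Xevinapant. Mcm3 was at 453, 453 and 494 in vehicle and 544 and 498 in Xevinapant. Mcm2 overlapped between the treatments, whereas both Xevinapant values of Mcm3 lay above the vehicle values. Cdt1, which brings the helicase to origins, stood 10.6 times above the resting cells (8.84 to 13.3) and Mcm10, which helps to start it, 17.5 times (10.8 to 21.3). Dbf4, which activates the origin kinase Cdc7, was the least separated from the resting cells, at 2.24 times (1.58 to 2.43), followed by Gins4 at 2.45 times.

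At the fork, Pcna, the sliding clamp of the polymerases, stood at 742, 685 and 817 CPM in vehicle and 499 and 607 in Xevinapant, so the groups did not overlap. Clspn, which relays fork stalling to the checkpoint, stood 13.6 times above the resting cells (7.90 to 15.4), and Pole, the leading-strand polymerase, 10.6 times (6.42 to 11.7). In nucleotide synthesis, Tk1, the thymidine kinase, lay 21.1 times above the resting cells (14.2 to 29.8) and Rrm2, a ribonucleotide reductase subunit, 17.6 times (14.0 to 24.4). Of the 33 checkpoint and repair genes, 32 were higher in all 5 samples. Brca1, a repair gene, stood 12.4 times above the resting cells (9.48 to 15.8), whereas Atr, the checkpoint kinase, stood at 1.11 times (1.05 to 1.38).

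**Figure D2:**
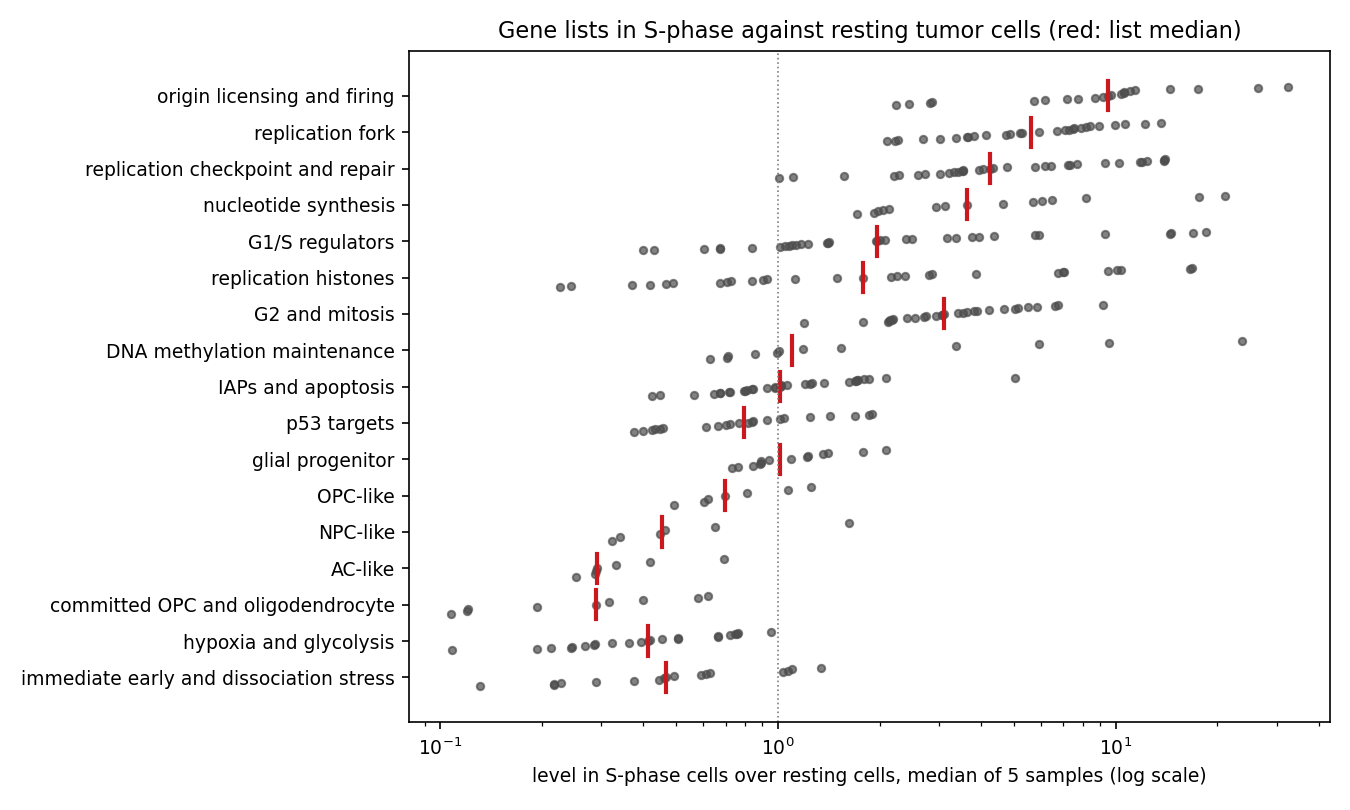
Level of each gene in S-phase cells divided by its level in resting tumor cells, as the median of 5 samples on a log axis, with 1 point per gene and the list median in red. The origin list lies furthest to the right, with a median of 9.51, and the AC-like and the committed oligodendrocyte lists furthest to the left, with 0.29 and 0.29.

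G1/S regulators were mixed. Of 34 genes, 23 were above and 6 below the resting cells in all 5 samples, beside 28.4% and 37.9% of all genes. The list holds E2f1 and Ccne2, whose place was fixed by the rule. E2f1, E2f2, E2f7 and E2f8 lay a median of 14.5, 18.5, 14.6 and 9.28 times above the resting cells, whereas E2f4 and E2f5, which act mainly as repressors in resting cells, lay at 1.42 and 1.08 times. Ccne1 stood at 5.77 times (5.07 to 6.49) and Cdk2, its kinase partner, at 3.17 times (3.10 to 3.45). Ccnd1 and Ccnd3, the cyclins of G1, were less separated, at 1.95 and 1.40 times. The CDK inhibitor Cdkn1a was the other way, at 0.40 times (0.26 to 0.43), and Cdkn1b at 0.67 times (0.60 to 0.69).

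Of 12 DNA methylation genes, 5 were above and 4 below the resting cells in all 5 samples, beside 28.4% and 37.9% of all genes. Uhrf1, itself a marker of the rule, Hells and Cdca7, which remodel chromatin for methylation, and Dnmt1, the maintenance methyltransferase, lay 23.7, 9.55, 5.92 and 3.37 times above the resting cells. Tet1, which oxidizes methylated cytosine, stood at 0.71 times (0.63 to 0.77).

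Outside the lists, the 10 genes with the highest ratio to resting cells at 50 or more CPM were Neil3, Dscc1, BC030867, Mybl2, Esco2, Pkmyt1, Mxd3, Ulbp1, Kntc1 and Spc24. Neil3, a DNA glycosylase, had the highest ratio, 23.1 times (18.4 to 44.5), from 62.4, 38.6 and 46.9 CPM in vehicle and 48.1 and 56.6 in Xevinapant against a mean of 2.12 in resting cells. Its means were higher still in late cells, 64.1, and in G2 and mitosis cells, 67.8, and Mxd3, Esco2 and Spc24 stood at 0.43, 0.65 and 0.72 times their level in late cells. Dscc1, which loads the clamp for sister chromatid cohesion, stood 15.8 times above and Esco2, a cohesin acetyltransferase, 13.6 times. Mybl2, which encodes B-MYB, was at 142, 149.5 and 159 in vehicle and 159 and 169 in Xevinapant, 14.7 times above the resting cells (11.3 to 20.8). None of these 10 genes passed the treatment test.

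The AC-like, NPC-like, committed oligodendrocyte and hypoxia lists stood lower in the S-phase than in the resting cells. This was not so for every list of cell states. Of the 6 tested NPC-like (neural progenitor-like) genes, 0 were above and 5 below the resting cells in all 5 samples, with a median of 0.45. Of the 7 AC-like (astrocyte-like) genes, all 7 were below the resting cells in all 5 samples, with Gfap 3.48 times higher in the resting cells (1.76 to 5.25). All 9 tested genes of the committed OPC and oligodendrocyte list were lower too. Gpr17, a marker of committed progenitors, was 2.51 times (1.75 to 2.83) and Mbp, a myelin protein, 9.27 times (6.07 to 38.4) higher in the resting cells. The study told malignant from normal cells by inferred copy number, which was not done here. Normal cells with Olig1 and Olig2 could therefore pass as tumor, and their part in the resting cells was not tested. Of 23 hypoxia and glycolysis genes, 22 were lower in all 5 samples, among them Vegfa, which was 4.07 times higher in the resting cells (3.01 to 4.74). The 7 MES-like (mesenchymal-like) genes had 1 above and 3 below, with a median of 0.94, and the 13 NF-kB response genes 6 above and 3 below, with a median of 1.11. Over all genes 28.4% were above and 37.9% below in all 5 samples, with a median of 0.94.

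Of 14 glial progenitor genes, 6 were above and 2 below the resting cells in all 5 samples, with a list median of 1.02 times, beside 28.4% above and 37.9% below and a median of 0.94 over all genes. Nes, an intermediate filament of neural stem cells, stood at 2.09 times (1.61 to 2.22) and Egfr, the growth factor receptor, at 1.79 times (1.51 to 2.28). Sox2 lay below, at 0.84 times (0.77 to 0.93). Olig1 and Olig2, which were part of the rule, stood at 1.26 and 1.07 times. Of the 7 OPC-like (oligodendrocyte progenitor-like) genes, only these 2 were above and 4 were below in all 5 samples, with a median of 0.70. Set against the late cells, the list medians were 1.06 for the glial progenitor, 1.16 for the AC-like, 1.07 for the committed oligodendrocyte and 0.98 for the hypoxia genes, beside a median of 1.03 over all genes.

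Markers of other cell types were low in the sums but differed between samples. The defining microglial and macrophage genes C1qa, C1qb and C1qc, limited by the rule, were at 2.24 to 12 CPM. The summed level of 20 immune markers was 128, 63.9 and 135 CPM in vehicle and 186 and 141 in Xevinapant, with Cd3e, Cd3d and Nkg7 below 1 in every sample. The 8 fibroblast and mural markers summed to 74.9, 291 and 125 in vehicle and 501 and 81.8 in Xevinapant. Rgs5, a pericyte gene, was at 82.9 in vehicle 2 and below 1 in the other 4 samples. At least 3 UMIs of the immune markers were held by 29.5, 16.6 and 36.5% of vehicle and 44.7 and 48.1% of Xevinapant S-phase cells, which did not overlap. The summed immune levels in CPM, which are scaled to an equal total, did not overlap either. A fixed number of UMIs is reached more easily in deeper cells, and both Xevinapant samples were deeper. The part of depth in these percentages was not tested. In Xevinapant 1+2, 35.3% of the S-phase cells held 3 or more UMIs of the fibroblast and mural markers and 32.0% of the erythrocyte markers. The part of these markers in the treatment differences below was not tested.

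The share of S-phase cells among tumor cells was 10.1% (exact 95% interval 9.30 to 10.9%), 8.91% (8.10 to 9.77%) and 9.01% (8.45 to 9.60%) in vehicle. It was 6.65% (5.90 to 7.47%) and 11.3% (10.6 to 12%) in Xevinapant. The Xevinapant samples thus stood at the bottom and at the top, one on either side of the vehicle samples. Intervals cover counting error only. The means were 9.34% ± 0.66 (SD, n = 3) and 8.96% ± 3.25 (SD, n = 2), a difference of -0.38 percentage points. An exact two-sided permutation test gave p = 0.9, and with 10 assignments of 3 against 2 samples it cannot go below 0.1.

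**Figure D3:**
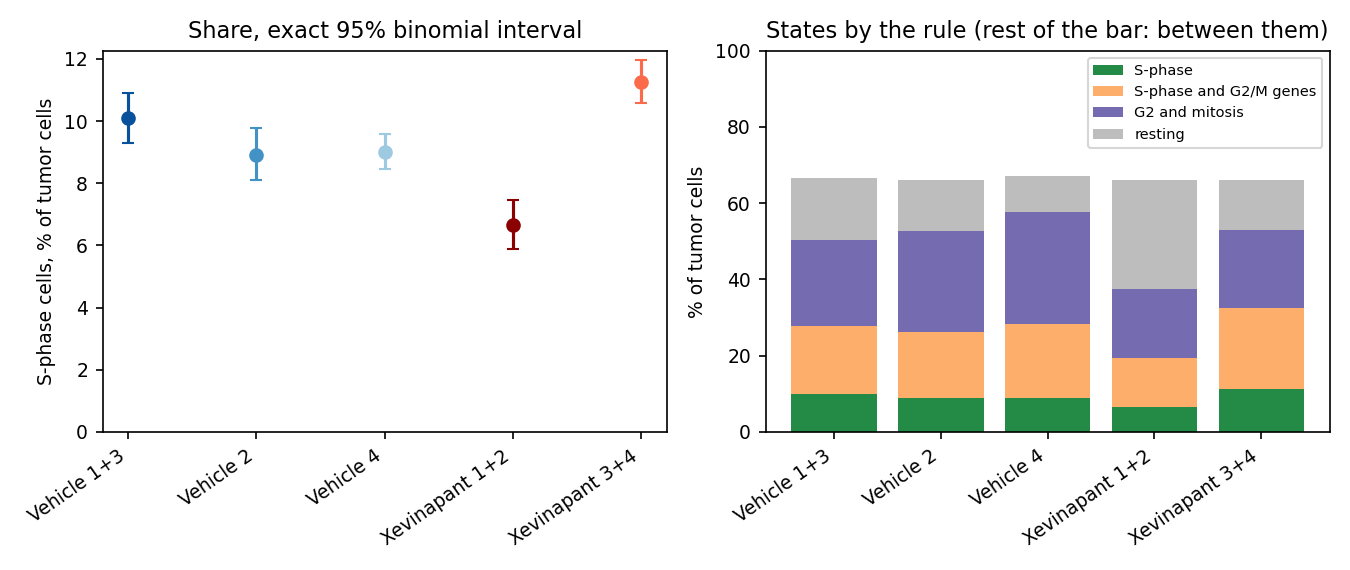
Left, S-phase cells as a percentage of tumor cells by sample, with exact 95% binomial intervals. Right, stacked percentages of tumor cells that were S-phase, late (S-phase and G2/M genes), G2 and mitosis, or resting, the rest lying between these states. Xevinapant 1+2 had the lowest S-phase share, 6.65%, and the highest resting share, 28.4%, and Xevinapant 3+4 the highest S-phase share, 11.3%.

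At an equal depth of 10000 UMIs per cell, which left 4008 of 5451, 3467 of 4603 and 7734 of 9634 tumor cells in vehicle and 2937 of 3997 and 6721 of 8182 in Xevinapant, the shares were 9.16, 7.1 and 7.71% in vehicle and 5.79 and 8.61% in Xevinapant, and the groups overlapped again. Resting cells made up 16.2, 13.5 and 9.44% of tumor cells in vehicle and 28.4 and 13.0% in Xevinapant. As a share of cycling tumor cells only, the S-phase cells came to 17.5% ± 2.27 (SD, n = 3) in vehicle and 19.5% ± 2.52 (SD, n = 2) in Xevinapant, which turned the difference to 1.95 percentage points (p = 0.4, exact permutation test). Leaving out Xevinapant 1+2 turned it to 1.92 percentage points and leaving out Xevinapant 3+4 gave -2.68, so a single sample decides its direction.

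Histone RNA was set against G1/S RNA, since histone genes are transcribed during DNA synthesis and G1/S genes before it. Resting cells, which hold little of either, had ratios of 1.31 to 1.54, so the ratio does not order all tumor cells by phase. The ratio of UMIs on 34 replication histone genes, Hist1h1b left out, to UMIs on 20 G1/S genes was 0.617, 0.662 and 0.695 in vehicle S-phase cells. It was 0.457 and 0.520 in Xevinapant S-phase cells, below every vehicle sample. The means were 0.658 ± 0.039 (SD, n = 3) and 0.488 ± 0.045 (SD, n = 2), and the difference of -0.169 had the smallest p the design allows (exact two-sided permutation test, p = 0.1). With each matrix as 1 sample it was -0.157 (exact permutation test, p = 0.0286). The summed histone genes lay at 2959, 2999 and 3305 in vehicle and 2031 and 2343 CPM in Xevinapant, while the G1/S genes lay at 4800, 4532 and 4756 and at 4448 and 4507.

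The difference in histone ratio was smaller in sets of cells chosen by depth. Among S-phase cells of 12000 to 24000 UMIs, the ratio was 0.670, 0.648 and 0.713 in vehicle and 0.556 and 0.636 in Xevinapant, still without overlap (p = 0.1, exact permutation test). When tumor cells with at least 10000 UMIs were thinned to that number, shallower cells left out, and the rule applied afterwards, the ratio was 0.941, 0.954 and 0.956 in vehicle and 0.932 and 0.945 in Xevinapant, which overlapped. The difference was then -0.012 (p = 0.3, exact permutation test), for a set of cells that had changed along with the depth. In the other states the groups overlapped, with vehicle and Xevinapant means of 1.40 and 1.44 in resting cells (p = 0.7, exact permutation test), 1.63 and 1.64 in late cells (p = 0.9) and 2.70 and 2.65 in G2 and mitosis cells (p = 0.9). Resting cells of 12000 to 24000 UMIs had means of 1.58 and 1.495 with a vehicle SD of 0.181 (p = 0.7, exact permutation test). Over all tumor cells the difference was -0.0997 (p = 0.2, exact permutation test).

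**Figure D4:**
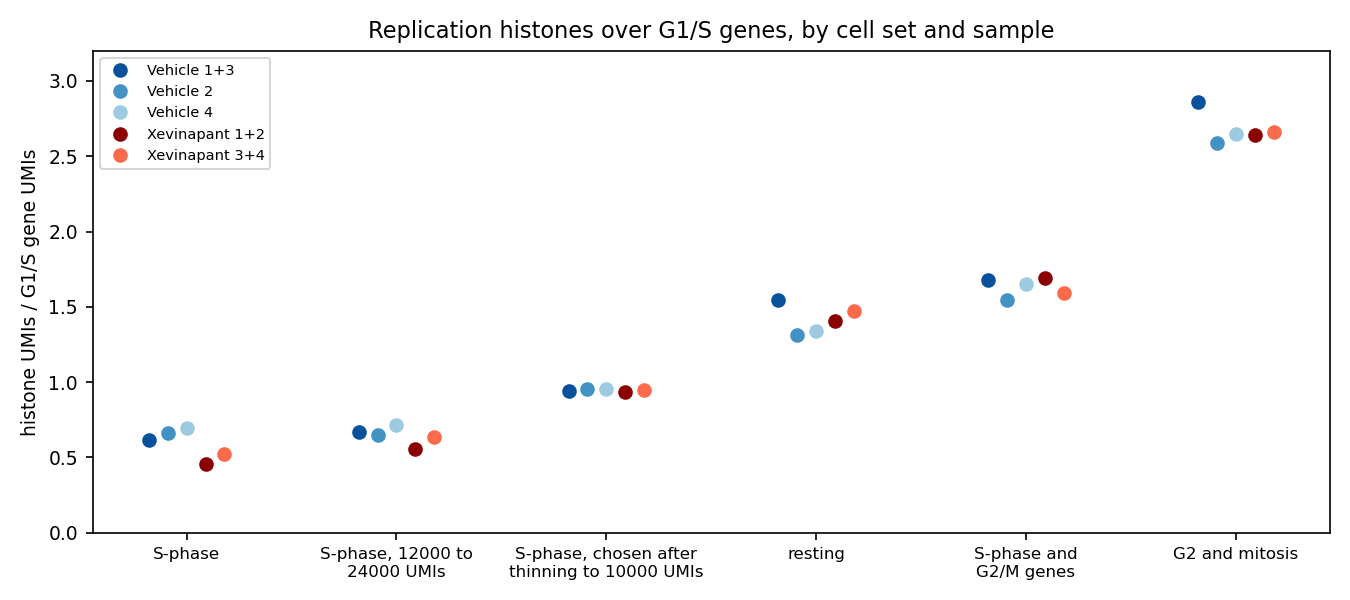
UMIs on replication histone genes divided by UMIs on G1/S genes, summed over the cells of a set, with 1 point per sample (vehicle blue, Xevinapant red). The Xevinapant points lie at 0.457 and 0.520 below the vehicle points of 0.617 to 0.695 in the S-phase cells as chosen, and at 0.932 and 0.945 beside 0.941 to 0.956 when cells were chosen after thinning.

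Among the S-phase cells themselves the histone content varied widely. The per-cell log2 ratio of histone to G1/S UMIs had a median of -1.48, with a 10th percentile of -2.97 and a 90th percentile of 0.86. The 2741 cells with Hist1h1b at 2 UMIs held 29.1 UMIs of the other histones per 10000 UMIs, and the 274 cells without it held 7.74. Hist1h1b passed 2 UMIs in 91.6, 91.2 and 95.2% of vehicle and in 76.7 and 90.4% of Xevinapant S-phase cells.

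No gene changed past the threshold between vehicle and Xevinapant S-phase cells. Of 12451 genes tested by edgeR's quasi-likelihood test, 0 had an adjusted p under 0.05 (0%), while 991 had an unadjusted p under 0.05, of which 487 were higher and 504 lower. DESeq2 called 11 higher and 34 lower genes on the same sums, and edgeR called 3 higher and 2 lower with each matrix as 1 sample. The groups did not overlap for 14.2% of the genes in the higher direction and 12.1% in the lower direction. Each sum held at least 6756236 UMIs.

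The higher genes with the smallest p-values included members of the immediate early response, which follows growth signals and stress. Fos, an AP-1 subunit, stood at 43.5, 32.4 and 33.1 CPM in vehicle and 270.4 and 159 in Xevinapant S-phase cells. The groups did not overlap, with a log2 fold change of 2.55 ± 0.25 (SE, edgeR adjusted p = 0.175). Over its alternatives the adjusted p of Fos ran from 8.57e-18 by DESeq2 to 0.838 by edgeR without vehicle 2. Egr1, a zinc finger factor of the same response, stood at 101, 109 and 76.7 in vehicle and 222 and 222 in Xevinapant (log2 fold change 1.20 ± 0.16, SE, edgeR adjusted p = 0.383). DESeq2 called Fos, Egr1, Srf, Myc, Hist1h3c, Nap1l1, Cbx3 and Nol7, and edgeR with each matrix as 1 sample called Fos, Egr1, Axin2 and Ckap2l. Without the low-count filter, edgeR on the joined samples called Fos, Egr1 and Hist1h3c among these. Srf, which controls both genes, had a log2 fold change of 0.54, Axin2, a feedback target of WNT signalling, 0.73, and Myc, a growth regulator, 0.67, each at an edgeR adjusted p of 0.611. Myc was at 188, 175 and 179.8 in vehicle and 322 and 261 in Xevinapant.

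The genes with the smallest p-values that were lower included a histone and chromatin factors. Hist1h3c, a histone H3 gene, stood at 116, 109.5 and 126 CPM in vehicle and 57.7 and 65.9 in Xevinapant (log2 fold change -0.94 ± 0.12, SE, edgeR adjusted p = 0.383). Nap1l1, a histone chaperone, was at 149.9, 151 and 149 in vehicle and 102 and 106 in Xevinapant. Cbx3, a heterochromatin protein, was at 174, 169 and 177 in vehicle and 94.4 and 122 in Xevinapant. Ckap2l, a spindle protein, and Nol7, a nucleolar protein, had log2 fold changes of -0.59 and -0.61. At equal depth per cell, all 5 kept non-overlapping groups, with Hist1h3c at a log2 fold change of -0.43 in place of -0.94 and Ckap2l at -0.26 in place of -0.59.

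**Figure D5:**
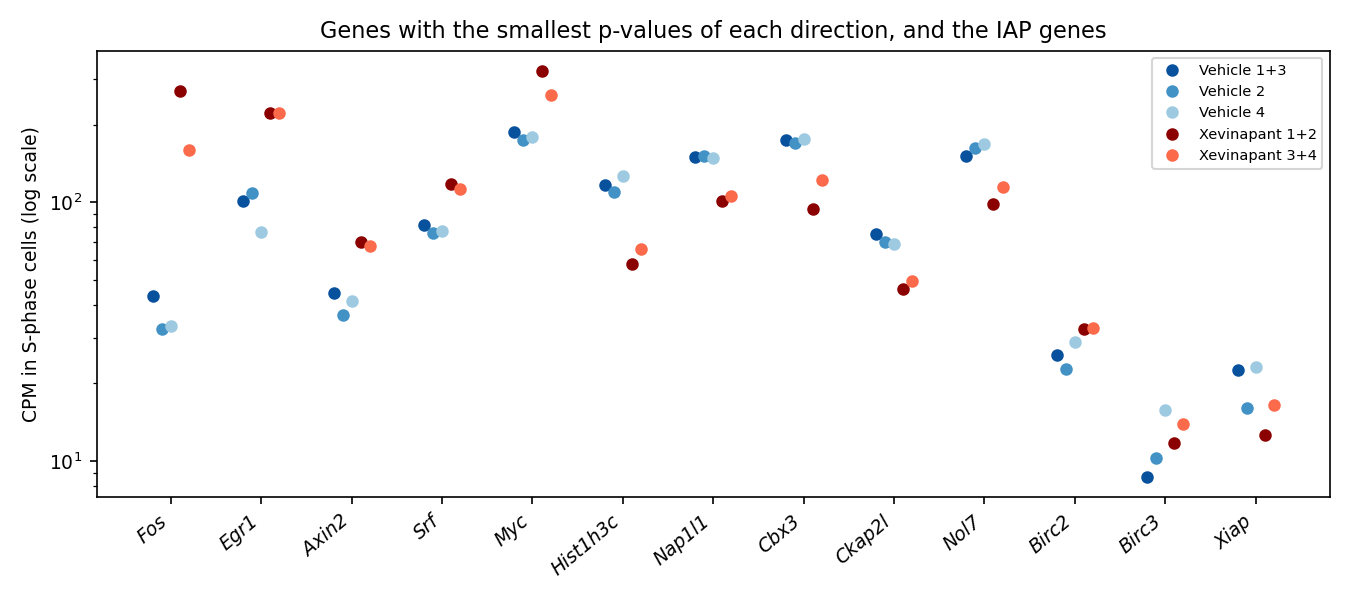
CPM in S-phase cells on a log scale, 1 point per sample, for the 5 higher and 5 lower genes with the smallest p-values whose groups did not overlap, and for Birc2, Birc3 and Xiap. Fos stands at 32.4 to 43.5 in vehicle and 159 to 270.4 in Xevinapant. None of the 13 genes passed edgeR's adjusted threshold in the main fit of the joined samples, whereas DESeq2 called 8 of them. Without the low-count filter edgeR called Fos, Egr1 and Hist1h3c.

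By list, the immediate early and dissociation stress genes leaned to the higher side. Of 17 tested, 8 were higher without overlap and 1, Hsp90aa1, was lower, beside 14.2% and 12.1% of all genes, and the median log2 fold change was 0.62 against 0.01 over all genes. The 8 were Fos, Fosb, Junb, Egr1, Ier2, Atf3, Dusp1 and Zfp36. Leaving out each sample in turn left 8 to 11 genes higher without overlap, beside 19.9 to 31.3% of all genes. The resting cells had a median log2 fold change of 0.87 for the same list. With cells chosen at equal depth, 8 of the 16 then tested were higher and 1 lower, beside 15.0% and 11.0% of all genes. This response also follows tissue dissociation, and its date and pool were those of the treatment.

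Lists of replication leaned lower in part, and less so at equal depth. The counts below stand beside 14.2% of all genes higher and 12.1% lower without overlap, and 15.0% and 11.0% at equal depth. The origin list holds the marker genes Mcm5 and Cdc6, and the G2 and mitosis list holds the 5 excluding genes, so the rule itself bears on both counts. None of 21 origin genes passed at an unadjusted p of 0.05, with 2 higher and 5 lower without overlap and a median log2 fold change of -0.01, and 6 were higher and 2 lower at equal depth. Nucleotide synthesis genes had 8 of 15 lower without overlap, with the smallest p for Rrm1, a ribonucleotide reductase subunit, at 340.5, 399 and 344 CPM in vehicle and 228 and 268 in Xevinapant. At equal depth 3 of the 15 were lower and 1 higher, and the list median went from -0.22 to -0.03. Replication fork genes had 11 of 28 lower and 2 higher, and at equal depth 5 lower and 6 higher. Checkpoint and repair genes had 9 of 33 lower and 2 higher, and at equal depth 4 lower and 6 higher. Replication histones had 10 of 29 lower and 1 higher, and at equal depth 4 lower and 3 higher of 23 tested. Leaving out a vehicle sample gave 10 to 17 of 29 lower, with 17 without vehicle 4, beside 16.3 to 18.9% of all genes. Hist1h1b, a gene of the rule, is among the lower ones in both counts. Of 29 G2 and mitosis genes 20 were lower and 0 higher, with a median log2 fold change of -0.38, and 6 were lower and 5 higher at equal depth, with a median of -0.05. The rule caps the 5 excluding genes of this list at a fixed number of UMIs, and both Xevinapant samples were deeper per cell. The part of the cap and of depth in these counts was not tested.

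Glial progenitor genes had 5 of 14 lower and 0 higher without overlap, among them Ptprz1 and Fabp7, beside 12.1% and 14.2% of all genes. At equal depth 6 of 14 were lower and 0 higher, beside 11.0% and 15.0% of all genes. Fabp7, a fatty acid binding protein of radial glia, was at 1039, 981 and 1196 CPM in vehicle and 548 and 691 in Xevinapant. MES-like genes had 3 of 7 higher and 0 lower, beside 14.2% and 12.1% of all genes, with a median log2 fold change of 0.30. At equal depth they again had 3 of 7 higher and 0 lower, beside 15.0% and 11.0% of all genes. Cartilage matrix genes had 4 of 15 higher and 0 lower, beside 14.2% and 12.1% of all genes, with a median log2 fold change of 1.34, and Col9a3, a cartilage collagen chain, at 814, 396 and 481 in vehicle and 3117 and 844 in Xevinapant was highest in Xevinapant 1+2. Without that sample 4 of 15 were higher and 1 lower, beside 27.3% of all genes that were higher. Without Xevinapant 3+4, 12 of 15 were higher, beside 31.3% of all genes, and without vehicle 1+3, 9 of 15, beside 24.1%. Immune markers had 6 of 17 higher and 0 lower, beside 14.2% and 12.1% of all genes, and 4 of 11 higher at equal depth, beside 15.0%. Among them was Cd68, a macrophage gene, at 8.17, 9.53 and 8.86 in vehicle and 17.3 and 15.1 in Xevinapant. Leaving out a vehicle sample gave 6 to 11 of 17 immune markers higher, with 11 without vehicle 4, beside 19.9 to 24.1% of all genes.

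None of the IAP genes that Xevinapant targets passed the test in S-phase cells. Birc2, which encodes cIAP1, was at 25.6, 22.6 and 29.0 CPM in vehicle and 32.3 and 32.7 in Xevinapant (log2 fold change 0.31 ± 0.16, SE, edgeR adjusted p = 0.618), without overlap. Birc3, which encodes cIAP2, was at 8.68, 10.3 and 15.8 in vehicle and 11.7 and 13.9 in Xevinapant, and the groups overlapped (log2 fold change 0.12), but at equal depth they did not (0.37). Xiap was at 22.6, 16.0 and 23.0 in vehicle and 12.6 and 16.4 in Xevinapant (log2 fold change -0.51 ± 0.24, SE, edgeR adjusted p = 0.615), with overlap. Of 33 tested IAP and apoptosis genes, 4 were higher and 3 lower without overlap, beside 14.2% and 12.1% of all genes, and 0 passed the test. Leaving out a vehicle sample gave 8 to 9 of 33 higher, beside 19.9 to 24.1% of all genes. It gave 3 to 5 lower, beside 16.3 to 18.9%. At equal depth 8 of the 31 then tested were higher and 1 lower, beside 15.0% and 11.0% of all genes. Bcl2l11, which encodes the death-promoting BIM, had the smallest unadjusted p of the list, at 34.5, 34.2 and 27.5 in vehicle and 59.2 and 42.0 in Xevinapant. Of the 22 p53 targets tested, 2 were higher and 1 lower without overlap, no larger a share than over all genes, and 13 were below the resting cells in all 5 samples, beside 37.9% of all genes.

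Whether the response differed between S-phase and resting cells was tested in 1 model with the sample as a block. Of 12877 genes, 0 had an adjusted p under 0.05 by edgeR (0%), 1122 had an unadjusted p under 0.05, and DESeq2 called 25. C1ql1, a secreted C1q-like protein of oligodendrocyte progenitors, had the smallest p. It was at 109, 84.3 and 94.8 CPM in vehicle S-phase cells and 125 and 158 in Xevinapant S-phase cells, and at 173, 140.0 and 140.3 and at 122 and 154 in resting cells. The difference of the log2 fold changes was 0.68 ± 0.08 (SE, edgeR adjusted p = 0.189). Col9a2, Lrrn1, Itga9 and St6gal2 followed with differences of 0.60 to 0.66. On the other side, Cebpb, a stress and inflammation factor, had a difference of -0.66, and Pacsin2, Baiap2, Fth1 and Sdc1 had -0.38 to -0.47, each at an adjusted p of 0.413. DESeq2 called C1ql1, Col9a2, Lrrn1, Itga9, St6gal2 and Fth1 among them. With each matrix as 1 sample, edgeR called Col9a2, Lrrn1, Itga9 and Baiap2, and without the low-count filter it called each of them. Fos was higher in both states, by a log2 fold change of 2.55 in S-phase and 1.59 in resting cells. The difference of 0.88 did not pass in edgeR's main fit (adjusted p = 0.453) but did by DESeq2 (adjusted p = 0.00989) and by edgeR without the low-count filter.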

How the data were processed

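The authors deposited UMI counts per gene and barcode, unnormalized, for 19059 mouse genes in 8 matrices read against mm10. The labels name Cell Ranger 3.0 and the file headers 7.1.0. Although the Xevinapant matrices are named Vehicle, their sample label decided the group. Barcodes needed at least 200 genes, at most 10% mitochondrial UMIs, a complexity score, the ratio of the logarithms of genes and UMIs, no lower than 0.8, and UMIs no fewer than the matrix median divided by 3. The members and gene lists were chosen with earlier results of these data known.

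Alike matrices were joined: in S-phase cells they differed by 1.00 to 1.34 times the sampling noise, other pairs of a group by 1.94 to 3.22 times. Over all tumor cells the joined pairs differed by 1.21 times in vehicle and by 2.20 (1 and 2) and 2.41 times (3 and 4) in Xevinapant. Other pairs of a group then differed by 4.75 to 8.85 times, so the joined Xevinapant pairs were closer but not equal. UMI counts were summed per sample and tested with edgeR 4.0.16 (quasi-likelihood, TMM, filterByExpr, Benjamini-Hochberg at 0.05) in R 4.3.3, with DESeq2 1.42.0 as an alternative. Shares and ratios were compared by exact permutation tests in scipy 1.17.1. Levels are CPM of the summed counts and are not compared between genes as amounts, since the assay counts probes. Doublet scores came from Scrublet in scanpy 1.11.5, the number marked growing with the size of the matrix. The edgeR step was tested on simulated counts. Named genes are the rule's own genes, up to 4 genes of highest level per list, 5 higher and 5 lower genes of smallest p with non-overlapping groups and a mean log2 CPM no lower than 5 (likewise for the difference between states), 10 genes outside the lists with the highest ratio to resting cells, and Birc2, Birc3 and Xiap. Any other gene named was chosen after its values were seen. Choosing cells after thinning for the genes and the histone ratio, the depth window and the list counts without a sample were added after seeing the data. Promoter windows and gene positions came from RefSeq, GRCm38.p6. A gene of the repair list is not reported here by name.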

Additional observations from a re-analysis of the deposited data

How the results depend on the processing

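The difference in S-phase share stayed below 0 under the other rules, doublets removed and thinning, and turned positive as a share of cycling cells (1.95 percentage points) and without 1 Xevinapant sample, with a range of -2.68 to 1.92 when each sample was left out. The histone ratio difference ran from -0.201 to -0.138 with each sample left out and reached p = 0.0286 at -0.157 with each matrix as 1 sample, which counts alike matrices as separate (exact permutation test). Genes called higher and lower in S-phase cells came to 3 and 2 with each matrix as 1 sample, 11 and 34 by DESeq2 and 9 and 1 without the low-count filter, and leaving out samples gave 0 to 1 higher. Genes whose response differed from resting cells came to 5, 25 and 93 under those 3 settings and to 0 to 20 with a sample left out. The log2 fold change of Birc3 turned to -0.055 without vehicle 1+3. No paired analysis was possible because the joined samples, 1+3, 2 and 4 against 1+2 and 3+4, do not match by number. The matrices of both groups are numbered 1 to 4, and whole barcodes were shared across groups only between equal numbers, but no source says that a number marks a shared animal or batch. With 3 against 2 samples, no exact test of a share or ratio could fall below p = 0.1. The causes of these shifts were not tested.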

Other observations

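Genes outside the lists that were lowest in S-phase relative to resting cells, chosen after their values were seen, included Slc2a3, a glucose transporter, at 80.6, 73.6 and 115 CPM in vehicle and 90.3 and 87.4 in Xevinapant S-phase cells. It was 4.26 times higher in the resting cells. Enpp2, which encodes autotaxin, was at 52.1, 24.3 and 21.7 in vehicle and 160.0 and 26.7 in Xevinapant, and C4b, a complement gene, at 106, 24.0 and 53.7 in vehicle and 378 and 125 in Xevinapant. Interferon response genes had 2 of 20 higher and 0 lower without overlap in Xevinapant S-phase cells, beside 14.2% and 12.1% of all genes. Vehicle 2 stood apart, with the list summing to 548 CPM against 1487 to 1774 in the other S-phase samples. Leaving out 1 sample gave 2 to 9 higher, with 9 without Xevinapant 1+2, beside 27.3% of all genes, and 8 without vehicle 1+3, beside 24.1%. Of 13 tested NF-kB response genes, 2 were higher and 0 lower without overlap, beside 14.2% and 12.1% of all genes, and 0 passed the test. Leaving out 1 sample gave 3 to 7 higher, with 7 without Xevinapant 3+4, beside 31.3% of all genes, and 6 without vehicle 2, beside 19.9%.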
